A study of Caenorhabditis elegans with 6 samples.

Results

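The 6 vitellogenin genes of *Caenorhabditis elegans*, *vit-1* to *vit-6*, were followed in wild-type animals given the small molecule RPW-24 or only its solvent. The members are the gene family itself, taken by name and not by how they responded. On the Affymetrix whole genome array a transcript is read by 1 or more probe sets, each a group of short probes summarised into 1 intensity. The annotation of the array names a vitellogenin gene for 10 of the 22548 probe sets that are not controls. Of these 10, 8 name 1 member and 2 name *vit-4* and *vit-5* together. *vit-1* and *vit-2* each have 1 probe set of their own, *vit-4* has 3, *vit-5* has 1 and *vit-6* has 2. *vit-3* is named by none of the probe sets, so it has no value here.

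Vitellogenins are the lipid-carrying yolk proteins. Adult hermaphrodites make them in the intestine and release them into the body cavity, from which growing oocytes take them up through the receptor RME-2 as food for the embryo. Their genes come on as the larva becomes an adult and are then among the most strongly expressed genes of the animal. *vit-1* to *vit-5* code for the large yolk proteins, with *vit-3*, *vit-4* and *vit-5* closely similar to each other, and *vit-6* codes for a precursor that is cut into smaller ones. In the reference table, *vit-1* to *vit-5* lie on chromosome X and *vit-6* on chromosome IV. *vit-3* and *vit-4* are neighbours, with no protein-coding gene annotated between them.

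Both groups were N2, the wild-type strain, raised on *E. coli* OP50 to the late L4 stage and then held in liquid S-basal with the same food. The treated group received 70 µM RPW-24 in 1% DMSO and the control group 1% DMSO alone, each for 15 hours at 15°C. Each group had 3 arrays, 1 for each of the biological replicates G, H and I, and both treatments of a letter were run in parallel, so a letter pairs a treated array with a control array. RNA came from whole animals. Fewer yolk-producing cells or younger animals therefore cannot be told apart from less vitellogenin RNA per cell. Control arrays had median intensities of 8.94 to 9.04 and treated arrays of 9.83 to 9.98, with 4.39 as the floor shared by all 6. Each value is limited in precision by the small number of arrays.

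The probes of the vitellogenin genes overlap in what they can bind. Of the 10 probe sets, 6 carry the suffix with which the array maker marks probes that may also match other transcripts, and these are all the probe sets of *vit-4* and *vit-5*. 1 probe set of *vit-6* carries the suffix for several transcripts of 1 gene or family. The probe sets of *vit-1* and *vit-2* and the other one of *vit-6* carry no such mark. Signals of *vit-3*, *vit-4* and *vit-5* can therefore not be told apart here, and a probe set is given below under the gene that the annotation names.

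Most yolk probe sets stood near the top of the intensity range in both groups. Rank 1 is the brightest probe set of an array, and rank describes the signal of a probe set, not the number of its transcripts. On each of the 6 arrays 8 of the 10 vitellogenin probe sets were among the brightest 50. The brightest probe set of all was one of *vit-4* on DMSO arrays G and H and that of *vit-5* on RPW-24 array G. On DMSO array I it belonged to *col-93*, a cuticle collagen, and on RPW-24 arrays H and I to *eef-1A.1*, a translation elongation factor.

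Several yolk probe sets stood lower in that order after RPW-24. The brightest *vit-4* probe set held ranks 1, 1 and 4 with DMSO (replicates G, H and I) and 4, 6 and 11 with RPW-24. The probe set of *vit-1* held ranks 152, 165 and 138 with DMSO and 236, 279 and 282 with RPW-24. The probe set of *vit-2* stood higher, at 49, 41 and 43 with DMSO and at 15, 40 and 31 with RPW-24. Counted over the family, 4 yolk probe sets were among the brightest 10 on each DMSO array, against 4, 2 and 0 on RPW-24 arrays G, H and I. These ranks are a description and were not tested.

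**Figure D1:**
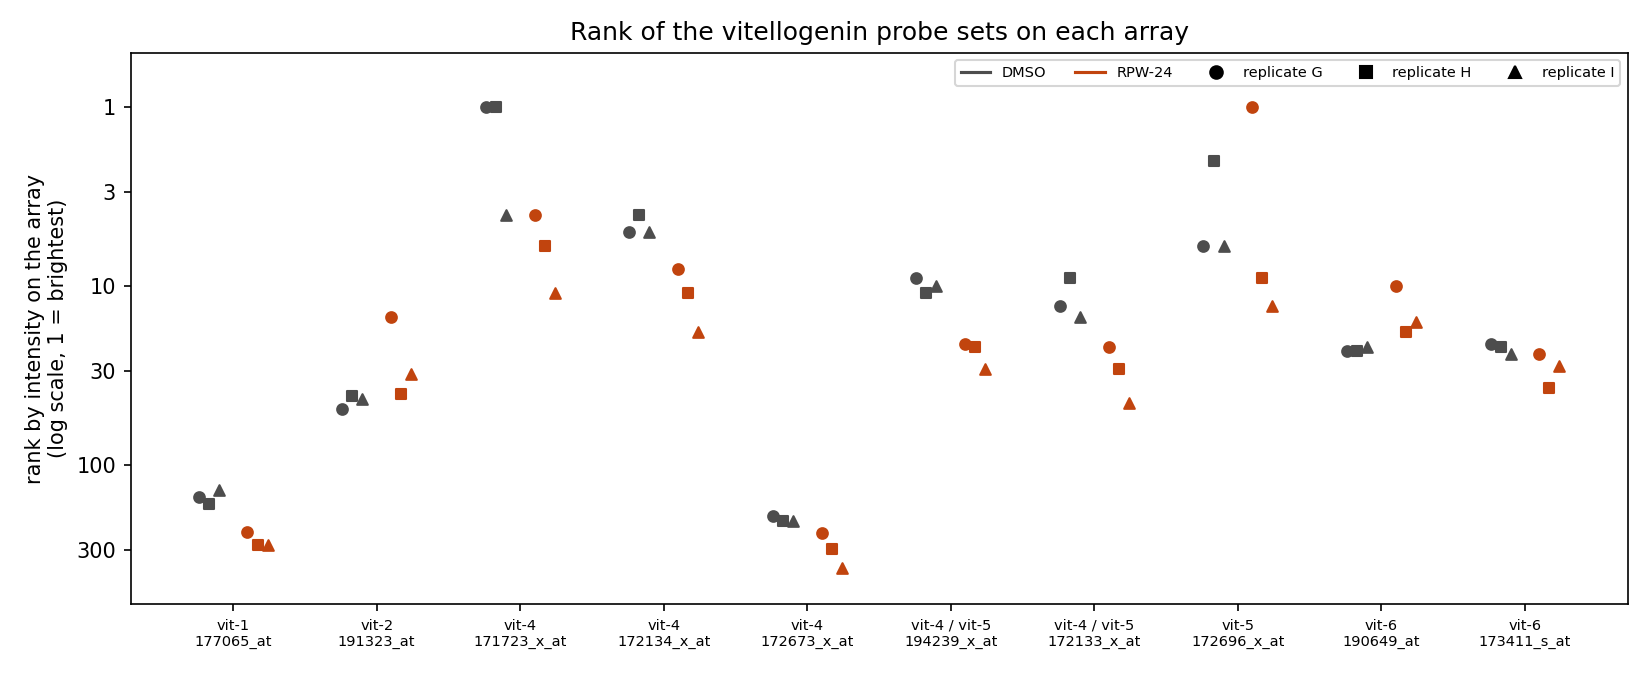
Rank of each vitellogenin probe set among all 22548 probe sets on each array, on a log axis with the brightest at the top, where colour gives the treatment and the symbol the replicate letter. Every RPW-24 array ranks *vit-1* lower than every DMSO array does (236 to 282 against 138 to 165), and *vit-2* higher (15 to 40 against 41 to 49).

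*vit-1* was the 1 member called, in a limma fit that did not use the pairing by letter. Its probe set (177065_at) read 24481, 23069.7 and 25406 with DMSO (replicates G, H and I, the order kept throughout) and 15854, 13133 and 12888 with RPW-24. All 3 treated arrays lay below all 3 controls, and the gap between the groups was wider than the spread within either. The mean was 24319 ± 1176 (SD, n = 3) with DMSO and 13958 ± 1646 (SD, n = 3) with RPW-24, which is 42.8% lower. The log2 fold change was -0.81 (SE 0.10, 95% interval -1.06 to -0.55), with a Benjamini-Hochberg adjusted p of 0.0253 from limma over all probe sets. Within letters the log2 difference was -0.63 for G, -0.81 for H and -0.98 for I.

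The *vit-1* call was close to the threshold. With the letter as a replicate block in the fit, the adjusted p of *vit-1* was 0.121. When arrays were left out in turn, *vit-1* passed in 1 of 6 fits, the one without RPW-24 array G, and its adjusted p ran from 0.0146 to 0.115 while its log2 fold change stayed between -0.90 and -0.75.

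*vit-2*, which codes for a yolk protein of the same large size class, had values on the other side of 0. Its probe set (191323_at) read 37041, 39196 and 39145 with DMSO and 51312, 39426 and 41717 with RPW-24. The treated arrays lay above the controls, but array H did so by a narrow margin, and array G stood apart from the other treated arrays. The mean was 38461 ± 1229.6 (SD, n = 3) with DMSO and 44152 ± 6306 (SD, n = 3) with RPW-24. The log2 fold change of 0.19 (SE 0.11, 95% interval -0.10 to 0.48) did not pass (limma, adjusted p = 0.584). Without RPW-24 array G it was 0.08.

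The probe sets of *vit-4* and *vit-5* had negative fold changes of smaller size, and none of the 6 passed. The brightest of *vit-4* (171723_x_at) read 72338, 71305 and 62725 with DMSO and 62165, 57312 and 51824 with RPW-24. The groups did not overlap, though the lowest control and the highest treated array differed by little. Means were 68789.5 ± 5277 and 57100.2 ± 5174 (SD, n = 3 each), and the log2 fold change was -0.27 (SE 0.10, limma adjusted p = 0.297). A second *vit-4* probe set (172134_x_at), with 65029, 66148 and 61961 with DMSO and 57849, 53624 and 49452 with RPW-24, gave -0.27 (SE 0.07, limma adjusted p = 0.163). Its treated arrays also all lay below its controls.

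The third *vit-4* probe set (172673_x_at) was dimmer and differed more. Its intensities were 20301, 18486 and 17779.7 with DMSO and 15611, 12474 and 9673 with RPW-24. The treated arrays were again all lower, with array I far below array G. Means were 18855 ± 1300.4 and 12586 ± 2971 (SD, n = 3 each), and the log2 fold change was -0.61 (SE 0.19, 95% interval -1.11 to -0.10, limma adjusted p = 0.242). That interval holds the values of both other *vit-4* probe sets.

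The 2 probe sets shared by *vit-4* and *vit-5* also had lower values with RPW-24, without overlap. One (194239_x_at) read 54664, 56397 and 55599 with DMSO and 48413, 45311 and 42810.0 with RPW-24. Its controls differed among themselves by less than any of them differed from a treated array. Its means were 55553 ± 867 and 45511 ± 2807 (SD, n = 3 each), for a log2 fold change of -0.29 (SE 0.05, 95% interval -0.43 to -0.15). Its adjusted p from limma, 0.0740, was the nearest to the threshold among the *vit-4* and *vit-5* probe sets. The other shared probe set (172133_x_at) read 53349, 57672.5 and 51707 with DMSO and 47110.2, 42161 and 39115 with RPW-24, for a log2 fold change of -0.34 (SE 0.09, limma adjusted p = 0.151).

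The probe set that names *vit-5* alone (172696_x_at) was the only one of the 6 *vit-4* and *vit-5* probe sets in which the groups overlapped. It read 64345, 69400.0 and 59451 with DMSO and 65421, 54230.2 and 50336 with RPW-24. RPW-24 array G lay above 2 of the controls, while arrays H and I lay below all of them. The means of 64399 ± 4975 and 56662 ± 7831 (SD, n = 3 each) differed by -0.19 on the log2 scale (SE 0.12, 95% interval -0.51 to 0.13, limma adjusted p = 0.644).

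The 2 probe sets of *vit-6*, the gene outside chromosome X, had opposite signs and neither passed. The one with no mark for other transcripts (190649_at) read 47254, 45522 and 46531 with DMSO and 55398, 47834 and 49658 with RPW-24, all treated arrays above the controls. Its means were 46436 ± 870.0 and 50963 ± 3947 (SD, n = 3 each), with a log2 fold change of 0.13 (SE 0.06, 95% interval -0.04 to 0.30, limma adjusted p = 0.464). With the arrays centred on their medians it was -0.01, and with a further quantile normalization 0.15, so its direction depends on which scaling is used. When arrays were left out in turn it stayed between 0.07 and 0.18. The other (173411_s_at) read 47931, 46566 and 44829.6 with DMSO and 45806, 40592 and 43009 with RPW-24, and its groups overlapped. Its log2 fold change was -0.11 (SE 0.06, 95% interval -0.26 to 0.04, limma adjusted p = 0.514).

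**Figure D2:**
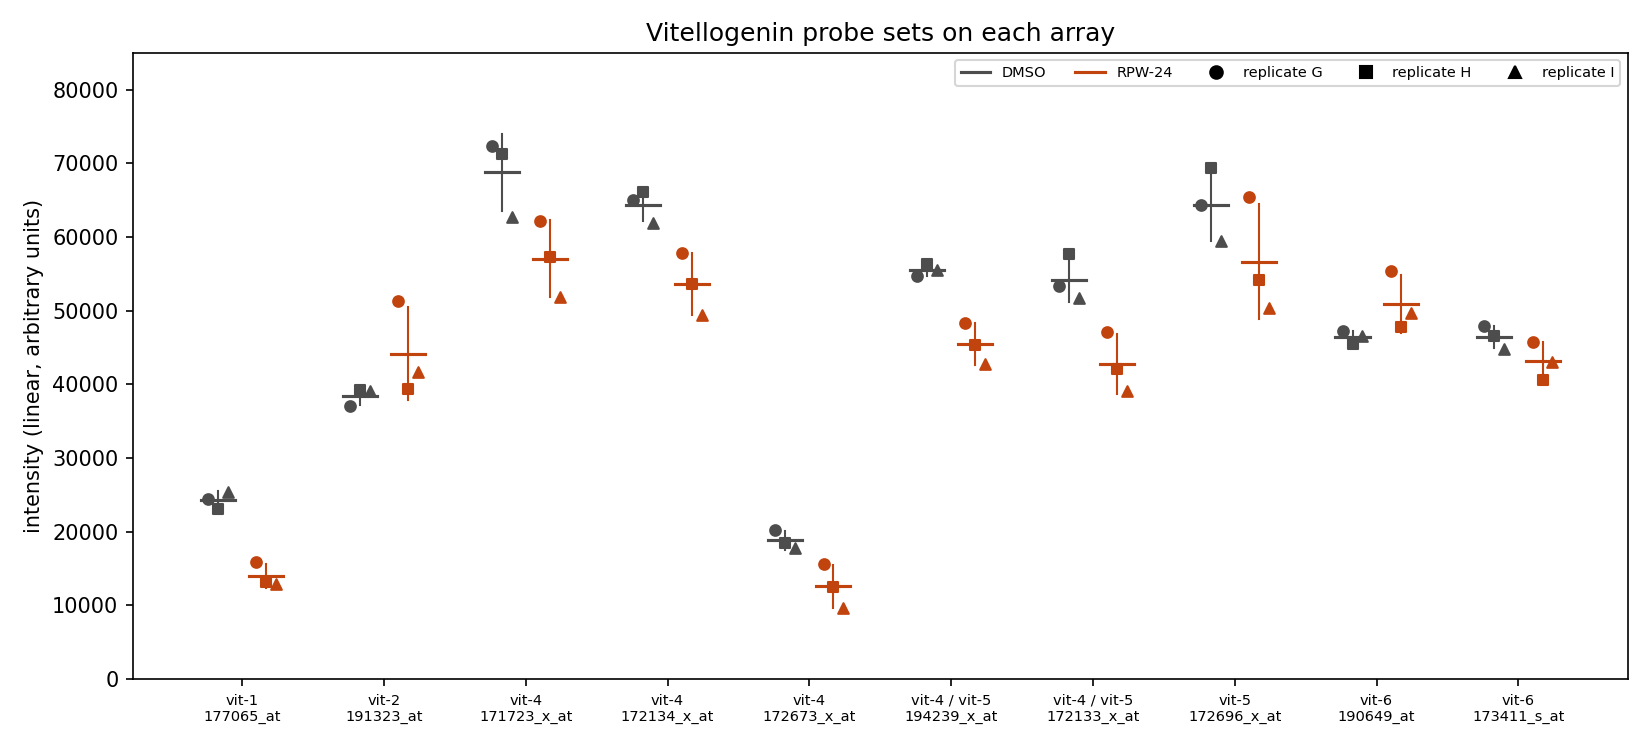
Intensity of each vitellogenin probe set on each array, with the mean and SD of the 3 arrays of a group; colour gives the treatment and the symbol the replicate letter. *vit-1* shows the clearest gap (12888 to 15854 with RPW-24 against 23069.7 to 25406 with DMSO), and RPW-24 array G is the highest treated array for all 10 probe sets.

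Across the family, then, 1 of 10 probe sets was called lower and none higher, beside 1.07% of all probe sets called lower and 2.42% called higher. The count of members called lower moved with the processing. It was 4 when only probe sets with a mean log2 intensity of at least 5 were tested, 0 with the replicate block and 8 with the arrays centred on their medians. Over all probe sets tested, that filter gave 673 lower and 950 higher, and the block 27 and 166. The share called among the probe sets kept by the filter was not worked out. Centring shifts every log2 fold change by -0.14 and turns the calls over all probe sets from 242 lower and 545 higher to 14480 and 1112, and a further quantile normalization turns them to 814 and 594. At an unadjusted p under 0.05 in limma, 6 members were lower and 0 higher, beside 8.25% and 6.79% of all probe sets. The methods' t-test, whose form was chosen here since they do not state it, gave 5 and 0, beside 6.73% and 5.74%. The median log2 fold change of the 10 was -0.27, against 0.00 over all probe sets. The 7 probe sets of *vit-1*, *vit-4* and *vit-5* ranged from -0.81 to -0.19, and 20 of their 21 within-letter differences were negative. The *vit-4* and *vit-5* probe sets may read each other's messages, so they are not separate observations.

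The groups did not overlap in 6 probe sets that were lower and 2 that were higher with RPW-24, beside 10.4% and 8.09% of all probe sets. Among the 432 probe sets with a mean log2 intensity of at least 13, which hold all 10 members, these shares were 19.9% and 15.0%, and the shares at an unadjusted p under 0.05 were 16.4% lower and 12.7% higher. The median log2 fold change of those bright probe sets was -0.02, and 80% of them lay between -0.24 and 0.24. Only 5 of the 432 had a lower log2 fold change than *vit-1*. At an adjusted p under 0.05 in limma, 14 of the 432 were called lower (3.24%) and 13 higher. The limit of 13 was chosen after the ranks of the members were seen. With 3 arrays against 3 the smallest two-sided p of an exact permutation test is 0.1, which the 8 probe sets without overlap reach. *vit-5* gave 0.3 and the second *vit-6* probe set 0.2.

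The thresholds in the methods were a 3-fold change with an unadjusted p under 0.025, which 1.85% of all probe sets passed in this fit. No vitellogenin probe set passed, since the greatest difference, that of *vit-1*, was 1.75-fold.

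**Figure D3:**
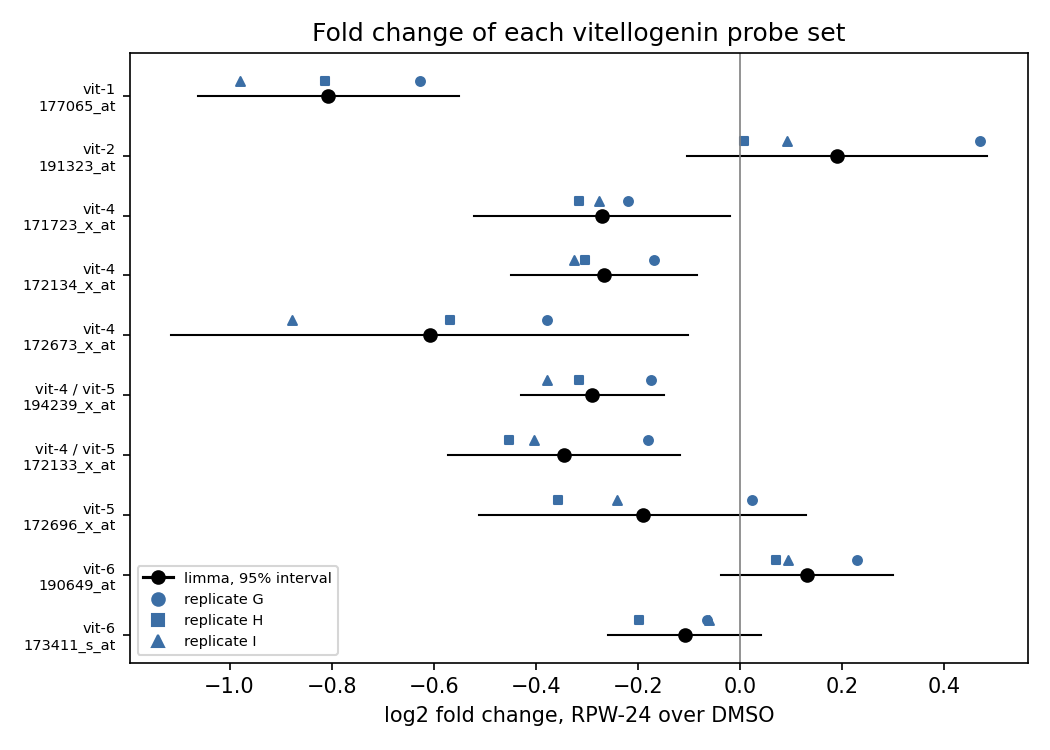
Log2 fold change of RPW-24 over DMSO for each vitellogenin probe set with its 95% interval from limma, and the differences within replicates G, H and I as symbols. The *vit-1* interval (-1.06 to -0.55) lies below 0 and passes, those of *vit-2*, *vit-5* and both *vit-6* probe sets include 0, and those of *vit-4* and of the shared probe sets lie below 0 without passing the adjusted threshold.

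Yolk values were more spread out among treated arrays than among controls. The SD of the log2 values was larger with RPW-24 than with DMSO in all 10 probe sets, from 0.023 to 0.113 with DMSO and from 0.087 to 0.345 with RPW-24. Over the 432 bright probe sets the SD was larger with RPW-24 in 66.0%, with medians of 0.054 and 0.082. RPW-24 array G was the highest treated array in all 10 yolk probe sets, against 31.2% of the bright probe sets, and array I was the lowest in 7 and array H in 3. The 10 values of an array are not independent of each other, and this difference in spread was not tested.

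Ratios between members within an array do not depend on how arrays were scaled by a constant and set members against each other. 7 ratios were compared, chosen after the values were seen, and *vit-4*, *vit-5* and *vit-6* were each the mean log2 value of the probe sets that name that gene alone. The log2 ratio of *vit-1* to *vit-2* was -0.60, -0.76 and -0.62 with DMSO and -1.69, -1.59 and -1.69 with RPW-24. The treated arrays lay far below the controls in every letter. The difference of -0.996 (SE 0.06) is a ratio of 0.501 of its control value, and it was -1.10 in G, -0.82 in H and -1.07 in I. The exact permutation p was 0.1, the smallest possible, and 0.1 after Benjamini-Hochberg adjustment over the 7 ratios, as for each of the others, so no ratio passed a threshold of 0.05.

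The log2 ratio of *vit-1* to *vit-6* differed between the groups by -0.82 (SE 0.07) and that of *vit-1* to *vit-4* by -0.43 (SE 0.09). The difference was -0.57 (SE 0.11) for *vit-4* to *vit-2* and -0.38 (SE 0.09) for *vit-5* to *vit-2*. The smallest of the 7 was 0.18 (SE 0.08), for *vit-2* to *vit-6*. Between the dimmest and the brightest *vit-4* probe set it was -0.34 (SE 0.13), although both name the same gene. In none of the 7 ratios did the groups overlap.

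**Figure D4:**
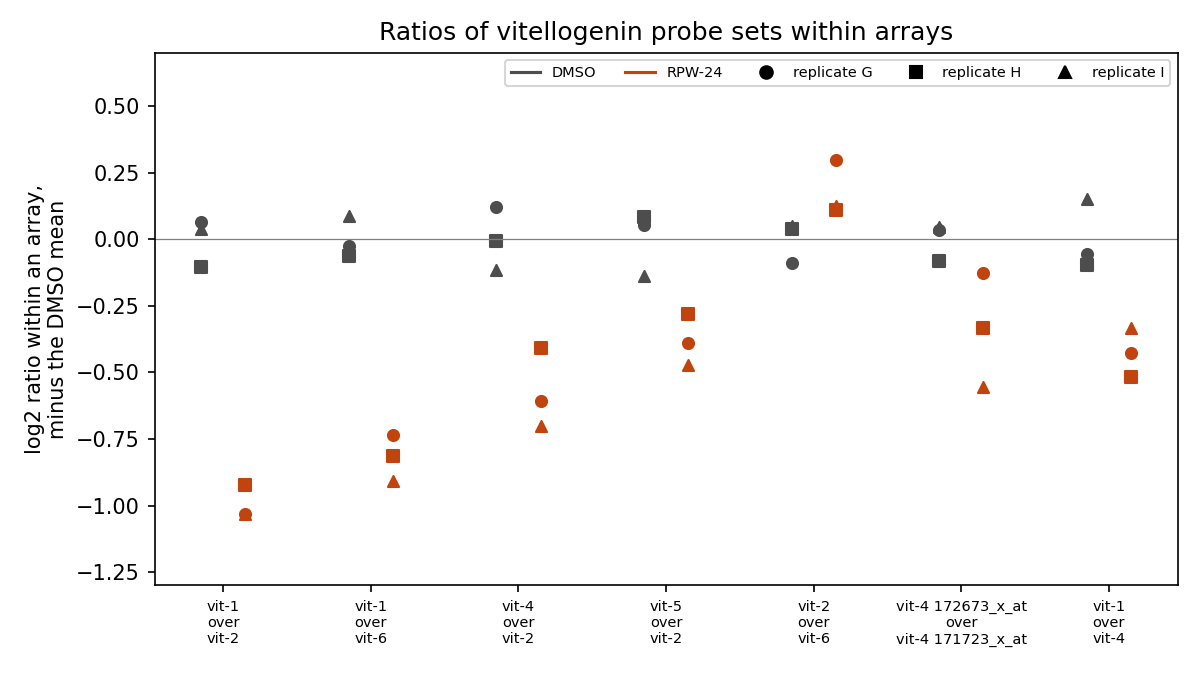
Log2 ratio between pairs of vitellogenin members within each array, set to the mean of the DMSO arrays for each pair; colour gives the treatment and the symbol the replicate letter. The ratio of *vit-1* to *vit-2* is lower on every RPW-24 array (mean difference -0.996), and the ratio of *vit-2* to *vit-6* differs least (0.18).

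Beyond the yolk genes themselves, the clearest difference in yolk biology was in a gene of lipoprotein assembly. *dsc-4* codes for the worm counterpart of the microsomal triglyceride transfer protein, which loads lipid onto lipoproteins as they are made. It read 376, 219.7 and 297 with DMSO and 2312, 2228 and 2427 with RPW-24. The treated arrays stood together, far above all controls. The mean rose from 298 ± 78.2 to 2323 ± 100.1 (SD, n = 3 each), a log2 fold change of 3.00 (SE 0.21, limma adjusted p = 0.00543), or 7.99-fold. With the replicate block its adjusted p was 0.0663. *sft-4*, which codes for a cargo receptor for the export of yolk protein from the endoplasmic reticulum, had a log2 fold change of 0.22 (limma adjusted p = 0.731).

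Of the 13 listed regulators of vitellogenin genes, all had a probe set of their own and none was called. Their median log2 fold change of 0.01 is the value of *mab-3*, which lay at or next to the lowest intensity. 3 of the 13 were higher at an unadjusted p under 0.05 and 0 lower in limma, beside 6.79% and 8.25% of all probe sets. *ceh-60*, a homeodomain factor that promotes yolk gene expression, read 33.1, 26.8 and 28.1 with DMSO and 80.0, 57.1 and 49.9 with RPW-24. Its groups did not overlap, and its log2 fold change was 1.06 (SE 0.21, limma adjusted p = 0.0867). It passed, at 0.0174, when only probe sets with a mean log2 intensity of at least 5 were tested, and at 0.00559 with centred arrays. *pqm-1*, a zinc finger factor of the intestine, had 1.14 (SE 0.36, adjusted p = 0.240) and *elt-7*, a GATA factor of the intestine, 0.96 (SE 0.31, adjusted p = 0.245). Both passed with centred arrays, at 0.0293 and 0.0338. The log2 fold changes of *ceh-60*, *pqm-1* and *elt-7* were smaller with centred arrays, at 0.93, 1.00 and 0.82. Centring also raised the calls over all probe sets to 14480 lower and 1112 higher.

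*unc-62*, a homeodomain partner of CEH-60, had -0.07 (limma adjusted p = 0.766), and *elt-2*, the main GATA factor of the intestine, 0.14 (adjusted p = 0.491). The sign for *elt-2* turned with the scaling, to -0.0015 with centred arrays and -0.01 with a further quantile normalization. *mab-3*, which holds yolk genes off in males, and *lin-29* and *lin-14*, which time the passage to the adult, were at or next to the lowest intensity on every array, so a difference could not be measured for them.

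All 13 genes listed for yolk uptake and use were measured, and none was called. Their median log2 fold change was -0.12, and 11 of the 13 values were negative. At an unadjusted p under 0.05 in limma 2 were lower, beside 8.25% of all probe sets. *rme-2*, the oocyte receptor that takes up yolk, read 11555, 11642 and 11959 with DMSO and 8749.5, 8666 and 10324 with RPW-24. All treated arrays lay below the controls. The means were 11719 ± 213 and 9247 ± 934 (SD, n = 3 each), with a log2 fold change of -0.35 (SE 0.08, limma adjusted p = 0.120). *rme-2* passed under the filter on low values (0.0318), with centred arrays (0.00192) and without RPW-24 array I (0.0173). With centred arrays most probe sets were called lower (14480 of 22548), so that call does not set *rme-2* apart. *rab-7*, a GTPase of late endosomes, had -0.48 (SE 0.09, adjusted p = 0.0777), and *cpl-1*, a cathepsin that processes yolk, -0.20 (adjusted p = 0.335).

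**Figure D5:**
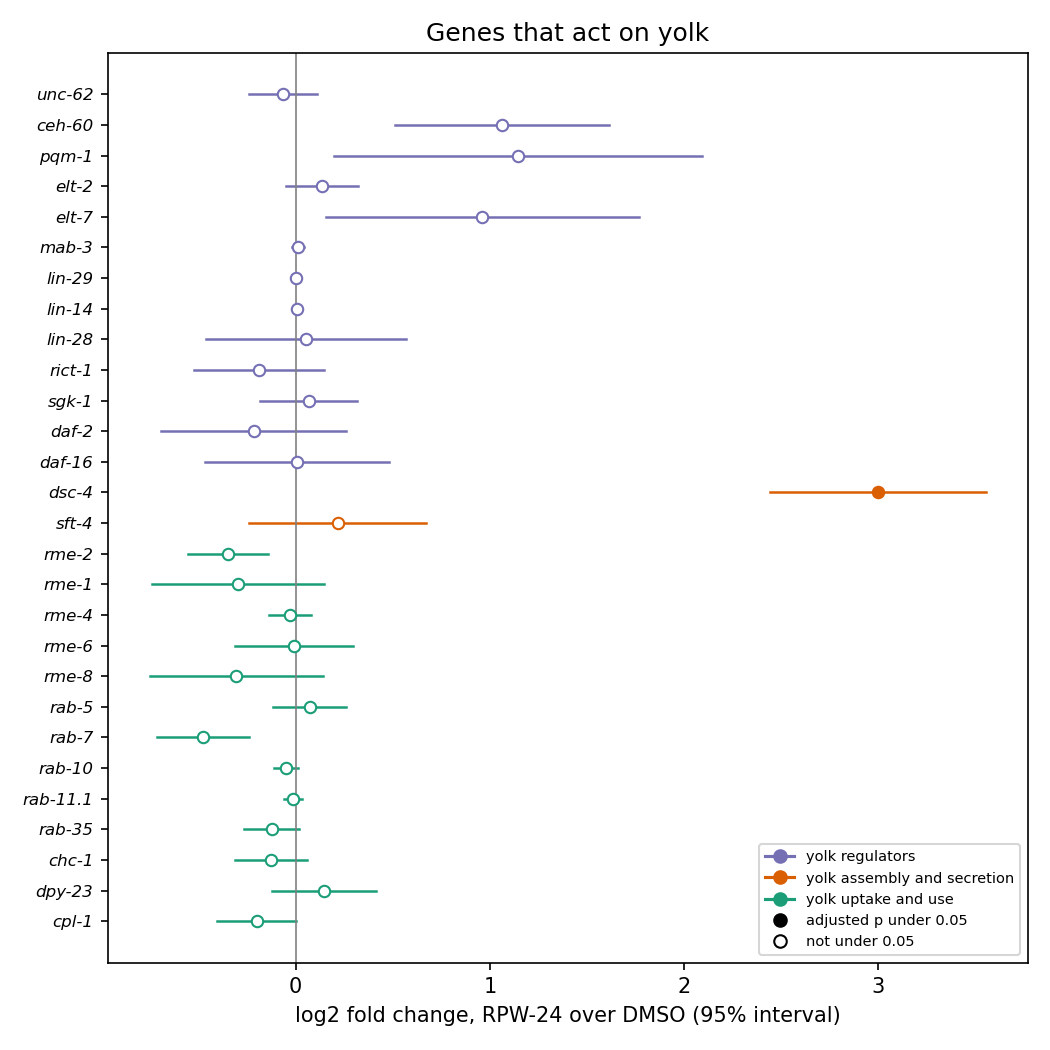
Log2 fold change of RPW-24 over DMSO with its 95% interval from limma for the measured genes that regulate, assemble, take up or use yolk; filled symbols have an adjusted p under 0.05. *dsc-4*, at 3.00, is the one filled symbol, and the uptake genes lie between -0.48 and 0.15.

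Genes of the tissues that make and receive yolk were read beside the members. Of 10 intestine markers none was called. With the filter on low values 3 were called higher, with centred arrays 4 higher and 1 lower, and with a further quantile normalization 1 higher. Over all probe sets the filter gave 950 higher, centring 1112 higher and 14480 lower, and the further quantile normalization 594 higher. The median log2 fold change of the 10 markers was 0.47. At an unadjusted p under 0.05 in limma 5 of them were higher and 0 lower, beside 6.79% and 8.25% of all probe sets. Their summed intensity was 73836 to 93541 with DMSO and 74207 to 82428 with RPW-24. That sum rests mainly on *asp-1* and *cpr-1*, with means of 43001 and 27839 with DMSO and 39433 and 22666 with RPW-24. These 2 had negative log2 fold changes and the other 8 positive ones. None of the 10 was at the lowest intensity. Of 10 germline markers none was called, all 10 values were negative with a median of -0.26, 4 were lower at an unadjusted p under 0.05 (beside 8.25% of all), and the sum was 49561 to 54460 with DMSO and 40788 to 50418 with RPW-24. The part of either tissue in the yolk values was not tested.

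Stage markers were read too, since yolk genes come on at the start of adulthood. *col-19*, a collagen of the adult cuticle, read 11991 ± 1993 with DMSO and 11440 ± 872 with RPW-24 (SD, n = 3 each, log2 fold change -0.06, limma adjusted p = 1). *cbd-1*, an eggshell protein, had -0.09 (adjusted p = 0.613). Over all 18 oocyte and eggshell genes none was called, the median was -0.13, and 16 of the 18 values were negative. At an unadjusted p under 0.05 in limma 6 were lower and 0 higher, beside 8.25% and 6.79% of all probe sets. *col-7* had no probe set of its own, and the other 3 adult cuticle genes were not called. Of these, *bli-1* and *bli-2* each read 1 unchanging value on all 6 arrays (6.56 and 4.39). A difference could not be measured for them, so *col-19* is the only gene of that list that could show one. Of 9 moulting genes none was called. At an unadjusted p under 0.05 in limma 1 was higher, beside 6.79% of all probe sets, namely *nas-37*, a protease of the moult. It read 114, 138 and 167 with DMSO and 218, 244 and 232 with RPW-24 (limma adjusted p = 0.0983). The list's sums of 172 to 224 with DMSO and 276 to 308 with RPW-24 rest mainly on it, since each of the other 8 read at most 19.6 on any array. The part of stage in the yolk values was not tested.

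The genes whose values over the 6 arrays were most like the mean of the vitellogenin probe sets were found among 6485 one-gene probe sets with a mean log2 intensity of at least 8. That mean was 15.47, 15.47 and 15.41 with DMSO and 15.36, 15.15 and 15.07 with RPW-24. The nearest were *atg-13* (Pearson r 0.998), *fbp-1* (0.993), *mage-1* (0.991), *gpaa-1* (0.990) and *mrpl-10* (0.987). Their log2 fold changes were -0.15, -0.29, -0.35, -0.22 and -0.13, and none was called. The arrays fall into 2 treatment groups, so any probe set that differs between the groups shares part of this pattern, and 240 probe sets had r above 0.9.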

How the data were processed

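RNA of whole animals was hybridised to 6 arrays, 3 per group. To make the deposited intensity values, the authors used GenePattern, with GC-RMA for background and summary and a quantile normalization. No version of GC-RMA was found in those sources. Values are on a linear scale, 1 for each probe set on an array. Near the top of the range, quantile normalization can limit how far arrays differ, and no saturation marks were used here. The deposited values did not share 1 distribution. Their highest intensity ran from 65421 on RPW-24 array G to 72338 on DMSO array G.

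Of 22625 probe sets, 77 controls were left out. The array annotation names 1 gene for 20766 of the rest, several for 887 and none for 895. Names and chromosomes of members were matched to a RefSeq table of assembly WBcel235. Log2 intensities went into limma (version 3.58.1, R 4.3.3; lmFit, eBayes with trend, no block, Benjamini-Hochberg adjustment over 22548 probe sets, threshold 0.05). A listed gene was read from its brightest 1-gene probe set. Exact permutation tests, ranks and ratios came from Python 3.11.15, using scipy 1.17.1, pandas 2.3.3, numpy 2.4.6 and, for the plots, matplotlib 3.10.9. The limma script was tested on simulated data.

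The text names every vitellogenin probe set, up to 4 called genes per list and direction, and 9 fixed yolk and stage genes. It also names the 5 genes most like the family. A few further genes were chosen after their values were seen (*sft-4*, *elt-7*, *lin-29*, *lin-14*, *rab-7*, *cpl-1*, *nas-37*, *bli-1*, *bli-2*, *asp-1*, *cpr-1*). The members, the 12 gene lists and the tests were chosen with earlier results of these data known. The labels say that both treatments of a letter were run in parallel. Over 13980 probe sets above the lowest intensity, paired arrays had deviations from their group means that correlated at 0.0881 for G, 0.144 for H and 0.138 for I.

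Alternatives were a replicate block, no variance trend, a mean log2 intensity of at least 5, median centring, a further quantile normalization, each array left out in turn, a t-test on linear intensities and one on log2 values. The methods name a modified t-test for the arrays without its scale or variance form, and the unpaired, equal-variance form on linear intensities, called the methods' t-test, was a choice made here. Promoter and protein sequences were not analysed here.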

Additional observations from a re-analysis of the deposited data

How the results depend on the processing

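Of 140 values of the members' log2 fold changes under alternatives, 116 kept their direction and side of the threshold, 8 lost the call (all *vit-1*), 15 gained it and 1 changed sign. The 7 ratios kept their direction, and the widest move was that of *vit-5* to *vit-2*, from -0.38 to -0.27 under a further quantile normalization. Against 1 vitellogenin probe set called lower in the report, centring on the medians gave 8, a mean log2 intensity of at least 5 gave 4, and the methods' t-test, the t-test on log2 values and the replicate block gave 0 each. The replicate block together with that filter, added after seeing the data, gave 6. Leaving out arrays gave 0 to 1. None was called higher in any of these. For vit-1 the adjusted p was 0.0651 with the methods' t-test and 0.0626 with the t-test on log2 values.

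Over all probe sets, calls lower and higher were 242 and 545 in the report, 14480 and 1112 with centring, 814 and 594 with a further quantile normalization, 673 and 950 with the filter, 57 and 177 with the methods' t-test, 103 and 347 with the t-test on log2 values, 27 and 166 with the replicate block, and 427 and 937 with block and filter. Leaving out arrays gave 72 to 156 lower and 274 to 390 higher. The filter tests fewer probe sets, the left-out fits use fewer arrays, and centring moves every log2 fold change by -0.14. The cause of the other shifts was not tested. Centring also gave 13 of 18 oocyte and eggshell, 9 of 13 uptake and 7 of 10 germline genes called lower, against 0 in each. Most probe sets were called lower under centring (14480 of 22548), and these lists were not tested against that share. Intestine markers called higher were 3 with the filter, 4 with centring and 2 with block and filter, against 0. The block changed the calls of *vit-1*, *dsc-4* and *ric-4* and no other named gene.

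Signs turned under centring for *vit-6* (-0.0072), *elt-2* (-0.0015) and *mab-3* (-0.13), under further quantile normalization for *elt-2* (-0.0091), and for *col-19* when arrays were left out (-0.168 to 0.0675). With 3 arrays per group, differences as small as those of *vit-2*, *vit-5* and *vit-6* could not be told from the spread. All yolk probe sets lay far above the lowest intensity, and *mab-3*, *lin-29* and *lin-14* lay at it.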

Other observations

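Other cell types were read from marker lists. Of 8 neuron markers 2 were called higher and 0 lower, beside 2.42% and 1.07% of all probe sets. These 2 were *egl-21*, which codes for a carboxypeptidase of neuropeptide processing, and *ric-4*, which codes for a synaptic vesicle fusion protein. Their log2 fold changes were 0.72 (SE 0.10, limma adjusted p = 0.0363) and 0.50 (SE 0.07, limma adjusted p = 0.0425). With the replicate block their adjusted p was 0.0411 and 0.124, and neither passed in any fit that left out an array. The median over the 8 was 0.33. At an unadjusted p under 0.05 in limma 3 of the 8 were higher and 0 lower, beside 6.79% and 8.25% of all probe sets. Of 8 muscle markers none was called, with a median of 0.34. At an unadjusted p under 0.05 in limma 2 of them were higher, beside 6.79% of all probe sets. Of 7 hypodermis markers none was called, with a median of -0.03. At an unadjusted p under 0.05 in limma 1 of them was lower, beside 8.25% of all probe sets. Of the 2 markers of coelomocytes, the scavenger cells that take up material from the body cavity, *unc-122* was at the lowest intensity on every array and neither was called. Their part in the yolk values was not tested.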
